A study of Mus musculus with 6 samples.

Results

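The genes described here are 10 markers and targets of the Wnt-driven intestinal stem cell program, *Lgr5*, *Ascl2*, *Axin2*, *Olfm4*, *Smoc2*, *Rnf43*, *Znrf3*, *Notum*, *Nkd1* and *Sox9*, taken by gene name from the 54167 genes of the expression table, where all 10 were found. RNA-seq had been done on 6 colorectal tumors. Of these, 3 came from *Trp53fl/fl* mice, which carry loxP-flanked *Trp53* alleles and no Cre, and 3 from *VP* mice (labelled Pvillin+Trp53fl/fl), which carry the same alleles together with Cre under the villin promoter, active in intestinal epithelium. All mice were C57BL/6J males, 8 weeks old at the start, given 10 mg/kg of the carcinogen azoxymethane (AOM) and then repeated 7-day courses of 2.5% dextran sulfate sodium (DSS), which injures the colon, with tumors dissected on day 98. Since Cre acts in the epithelium, stromal and immune cells of a *VP* tumor still carry intact *Trp53*. The labels number the tumors as replicates without saying that each is from a different mouse, so the p-values measure the spread between these tumors.

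Wnt signaling maintains the stem cells at the base of intestinal crypts. When Wnt ligands bind their Frizzled and LRP receptors, β-catenin escapes degradation and, with TCF/LEF factors, switches on genes that include markers of the stem cell itself and inhibitors that feed back on the pathway at several levels. Colorectal tumors typically carry mutations that keep this pathway active, and AOM tumors of the mouse often do so through β-catenin itself.

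Expression is given as TPM, a gene's share of all transcripts in a tumor after correction for transcript length, so levels of different genes can be compared. *Trp53* itself was at 99.3 to 147 TPM in *Trp53fl/fl* tumors and at 27.8 to 38.5 TPM in *VP* tumors, with a limma adjusted p of 0.0207 and a log2 fold change of -1.87, in the direction of the labels. A gene was tested when 3 or more tumors reached 1 TPM, and of the 15117 genes tested 25 had a limma adjusted p under 0.05, which is 0.165%. All 12 epithelial markers examined were detected, led by *Krt8* at 2563 to 3177 TPM, and the 4 markers of enteric glia summed to 2.05 TPM at most. The epithelial markers together summed to 9375 to 9804 TPM in *Trp53fl/fl* and 10186 to 11355 TPM in *VP* tumors, without overlap. The summed levels overlapped for 8 fibroblast, 7 smooth muscle, 7 leukocyte and 6 goblet cell markers. A sum mostly follows its most abundant markers. Within these 4 lists every *VP* tumor was below every *Trp53fl/fl* tumor for *Clca1* (log2 fold change -1.54), *Lum* (-0.57) and *Pdgfra* (-0.56), where 13.3% of all genes tested were. No tested marker of these lists lay wholly above, and none passed the adjustment. The summed levels of 8 neutrophil markers did not overlap, at 243 to 563 against 964 to 1729 TPM, and 1 of these markers, *Ngp*, passed the adjustment. The part of these cells in the values below was not tested.

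Of the 10 genes, 9 were expressed highly enough to be tested, and none differed between the genotypes at a limma adjusted p under 0.05. Most of the 9 leaned lower in *VP* tumors, as did most of all genes tested. The log2 fold change, taken on log2(TPM + 1) as *VP* minus *Trp53fl/fl*, was below 0 for 7 of the 9 genes, against 60.8% of all genes tested, with a median of -0.30 against -0.07 over all genes. For *Lgr5*, *Axin2*, *Rnf43*, *Znrf3* and *Notum*, every *VP* tumor lay below every *Trp53fl/fl* tumor, that is, 5 of 9 genes where 13.3% of all genes tested did so. For *Lgr5*, *Axin2*, *Znrf3* and *Notum* the unadjusted limma p was also under 0.05, in the downward direction, where 8% of all genes tested were. None of the 9 was higher at that threshold, as 4.51% of all genes tested were. These 4 genes became 1 when *Trp53fl/fl* replicate 1 was left out, and 2 without *Trp53fl/fl* replicate 3 or without *VP* replicate 2. Members share the same tumors and are not replicates of each other. They were also chosen with earlier results of these data known, so the counts beside these shares describe the list and do not test it. In whole tumors, fewer cells of a type and less RNA per cell cannot be told apart.

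**Figure D1:**
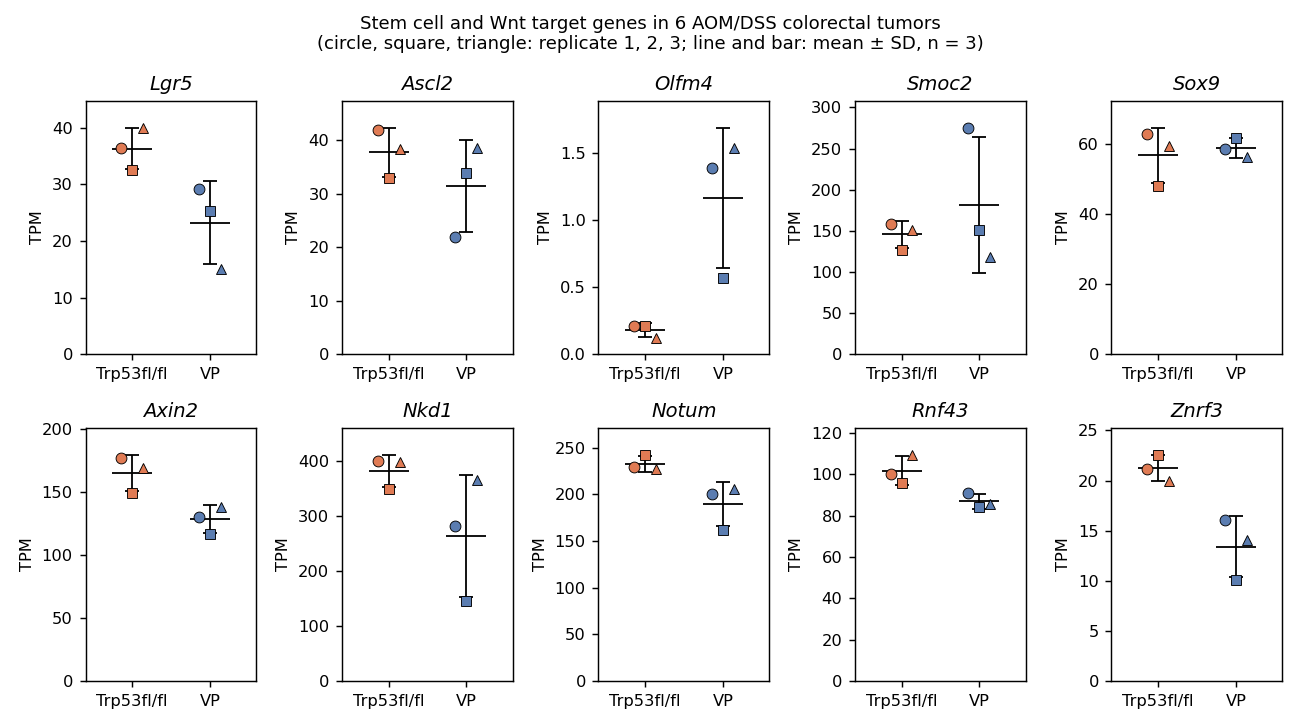
TPM (vertical axes, each from 0) of the 10 genes in the 3 *Trp53fl/fl* and 3 *VP* tumors, with 1 point per tumor and the mean ± SD of each genotype. For *Lgr5*, *Axin2*, *Notum*, *Rnf43* and *Znrf3* all *VP* points lie below all *Trp53fl/fl* points, for *Olfm4* they lie above at levels near 1 TPM, and for the other 4 genes the points overlap.

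The levels of the genes covered a wide range. In *Trp53fl/fl* tumors the order of the mean TPM was *Nkd1* (382), *Notum* (233), *Axin2* (165), *Smoc2* (146), *Rnf43* (102), *Sox9* (56.8), *Ascl2* (37.7), *Lgr5* (36.3), *Znrf3* (21.2) and *Olfm4* (0.18). *Nkd1* lay above 97.5% of all genes tested and *Znrf3* above 58.5%. Neighbours in this order had separate values in the 3 tumors, except *Axin2* with *Smoc2* and *Ascl2* with *Lgr5*. In *VP* tumors *Smoc2* (182 TPM) stood above *Axin2* (128 TPM), with the rest in the same order. There the values of *Nkd1* overlapped with those of *Notum* and *Smoc2*, those of *Smoc2* with *Notum* and *Axin2*, and those of *Lgr5* with *Ascl2* and *Znrf3*.

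*Lgr5* (ENSMUSG00000020140, chromosome 10 from 115450311 to 115587780; all positions are those of GENCODE M21 on GRCm38) encodes a receptor for R-spondins, the ligands that strengthen Wnt signaling, and marks the cycling stem cells of the crypt base. It was at 36.42, 32.61 and 39.91 TPM in *Trp53fl/fl* tumors and at 29.26, 25.28 and 15.08 TPM in *VP* tumors. *VP* replicate 3 was the lowest, and the genotypes did not overlap. The mean TPM was 36.1% lower in *VP* tumors, and the log2 fold change was -0.67 (standard error 0.24, 95% interval -1.23 to -0.11, limma adjusted p = 0.344). Without *VP* replicate 3 the log2 fold change of *Lgr5* was -0.40.

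*Rnf43* and *Znrf3* encode related transmembrane ubiquitin ligases that remove Frizzled receptors from the cell surface and that R-spondin, bound to *Lgr5*-family receptors, holds in check. *Znrf3* (ENSMUSG00000041961, chromosome 11 from 5276324 to 5444847) was at 21.19, 22.57 and 19.96 TPM in *Trp53fl/fl* and 16.03, 10.08 and 14.03 TPM in *VP* tumors. It had the smallest unadjusted p of the 9 genes, and its mean TPM was 37.0% lower in *VP* tumors, for a difference of -0.65 on the log2 scale (standard error 0.18, 95% interval -1.07 to -0.23, limma adjusted p = 0.289). *Rnf43* (ENSMUSG00000034177, chromosome 11 from 87662722 to 87735539) was at 100.11, 95.86 and 109.45 TPM against 90.99, 84.15 and 85.46 TPM. Its values did not overlap either, but its mean TPM differed by only 14.7%, and the 95% interval of its log2 fold change of -0.23 ran from -0.46 to 0.01 (limma adjusted p = 0.411).

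*Notum* (ENSMUSG00000042988, chromosome 11 from 120653788 to 120661175) encodes a secreted enzyme that strips the lipid from Wnt ligands and so inactivates them. It was at 229.04, 242.45 and 226.84 TPM in *Trp53fl/fl* and at 199.91, 162.21 and 205.87 TPM in *VP* tumors. The *Trp53fl/fl* tumors lay close together, at 233 ± 8.45 TPM (SD, n = 3), with the *VP* tumors at 189 ± 23.7 TPM (SD, n = 3), and the log2 fold change was -0.30 (standard error 0.12, limma adjusted p = 0.379), or -0.20 without *VP* replicate 2. Exons of *Notum* overlap those of *Notumos* on the opposite strand. *Notumos* was at 21.52, 17.58 and 17.87 TPM against 10, 6.99 and 11.62 TPM, and whether reads were assigned by strand is not given in the sources used here, so the transcripts may share reads.

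*Axin2* (ENSMUSG00000000142, chromosome 11 from 108920349 to 108950783) encodes a scaffold of the complex that degrades β-catenin and is a widely used readout of β-catenin/TCF activity. It was at 177.15, 149.21 and 168.74 TPM in *Trp53fl/fl* and at 129.97, 116.52 and 138.29 TPM in *VP* tumors. The genotypes were separate and similarly spread, with means of 165 ± 14.3 TPM in *Trp53fl/fl* and 128 ± 11 TPM in *VP* tumors (SD over n = 3). The mean of *Axin2* was 22.3% lower in *VP* tumors, and its difference on the log2 scale was -0.36 (standard error 0.12, 95% interval -0.63 to -0.09, limma adjusted p = 0.323). *Nkd1* (ENSMUSG00000031661, chromosome 8 from 88521354 to 88594884), which encodes an inhibitor that binds Dishevelled, was at 399.90, 348.66 and 397.79 TPM against 281.67, 144.51 and 364.57 TPM. Here *VP* replicate 3 lay among the *Trp53fl/fl* tumors, while *VP* replicate 2 was far below all others. The log2 fold change of *Nkd1*, -0.63 (standard error 0.31, limma adjusted p = 0.445), was -0.25 without *VP* replicate 2.

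Promoter sequence was available from RefSeq (GRCm38.p6) for 5 of the genes, *Ascl2*, *Axin2*, *Nkd1*, *Olfm4* and *Rnf43*. The 250 bases before the transcription start are shown for *Axin2* (chr11:108920099-108920348, plus strand) and *Ascl2* (chr7:142969265-142969514, minus strand), both long-known TCF targets whose RefSeq start coincides with the start of the gene in GENCODE. They are printed 5′ to 3′ in lower case, with no capitals because the core of the TCF/LEF motif, CTTTG on either strand, was in neither.

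Axin2: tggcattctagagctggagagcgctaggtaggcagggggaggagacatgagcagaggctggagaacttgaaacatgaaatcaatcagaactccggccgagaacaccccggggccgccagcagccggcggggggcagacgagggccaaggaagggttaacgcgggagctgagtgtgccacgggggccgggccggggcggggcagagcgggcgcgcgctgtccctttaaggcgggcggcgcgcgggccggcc

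Ascl2: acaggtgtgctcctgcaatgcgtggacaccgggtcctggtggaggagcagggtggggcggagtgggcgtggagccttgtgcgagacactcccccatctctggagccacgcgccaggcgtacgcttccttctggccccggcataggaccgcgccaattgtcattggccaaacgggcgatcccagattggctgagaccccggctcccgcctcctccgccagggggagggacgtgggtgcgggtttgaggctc

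Both stretches are rich in G and C (69.2% for *Axin2* and 67.6% for *Ascl2*). The core CTTTG was absent from all 6 windows of the 5 genes and present in 48.6% of the 32851 promoter windows of the same length, in which the longer forms CTTTGA and CTTTGT, which contain it, were found in 13.8% and 16.5%. No match says only that these letters are not in these windows.

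For the stem cell and progenitor genes *Ascl2*, *Sox9* and *Smoc2*, unlike *Lgr5*, the values overlapped between the genotypes. *Ascl2* (ENSMUSG00000009248, chromosome 7 from 142966829 to 142969264), which encodes the transcription factor that sets stem cell identity in the crypt, was at 42.00, 32.92 and 38.28 TPM in *Trp53fl/fl* and 21.90, 33.80 and 38.52 TPM in *VP* tumors. Only *VP* replicate 1 was below the *Trp53fl/fl* range, and the log2 fold change of -0.29 (95% interval -0.79 to 0.22, limma adjusted p = 0.588) was -0.056 without that tumor. *Sox9* (ENSMUSG00000000567, chromosome 11 from 112782224 to 112787760), a transcription factor of crypt progenitors and a Wnt target, was at 62.95, 47.98 and 59.61 TPM against 58.80, 61.86 and 56.34 TPM. Its log2 fold change was 0.061, with a 95% interval of -0.24 to 0.36 (limma adjusted p = 0.856), and was negative with centring on epithelial markers, with array quality weights and without *Trp53fl/fl* replicate 2.

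*Smoc2* (ENSMUSG00000023886, chromosome 17 from 14279506 to 14404790), which encodes a secreted matrix protein found in crypt base stem cells and also in stromal cells, was at 158.44, 127.21 and 150.94 TPM in *Trp53fl/fl* and at 275.12, 151.00 and 118.56 TPM in *VP* tumors. *VP* replicate 1 was the highest and *VP* replicate 3 the lowest of all 6. The log2 fold change of *Smoc2* was 0.23 (95% interval -0.46 to 0.92, limma adjusted p = 0.754), and -0.11 without *VP* replicate 1. In that tumor the fibroblast markers summed to 747 TPM, the lowest of the 6, and the smooth muscle markers to 880 TPM, within the range of 418 to 1355 TPM over all tumors. The part of stromal cells in the *Smoc2* values was not tested.

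*Olfm4* (ENSMUSG00000022026, chromosome 14 from 79984081 to 80023139), whose secreted product marks stem cells of the mouse small intestine, was almost absent. It was at 0.21, 0.21 and 0.12 TPM in *Trp53fl/fl* and 1.39, 0.57 and 1.54 TPM in *VP* tumors, below the level required for testing, with every *VP* tumor above every *Trp53fl/fl* tumor. With no filter on expression the difference for *Olfm4* on the log2 scale was 0.85 (limma adjusted p = 0.451 over 27871 genes).

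**Figure D2:**
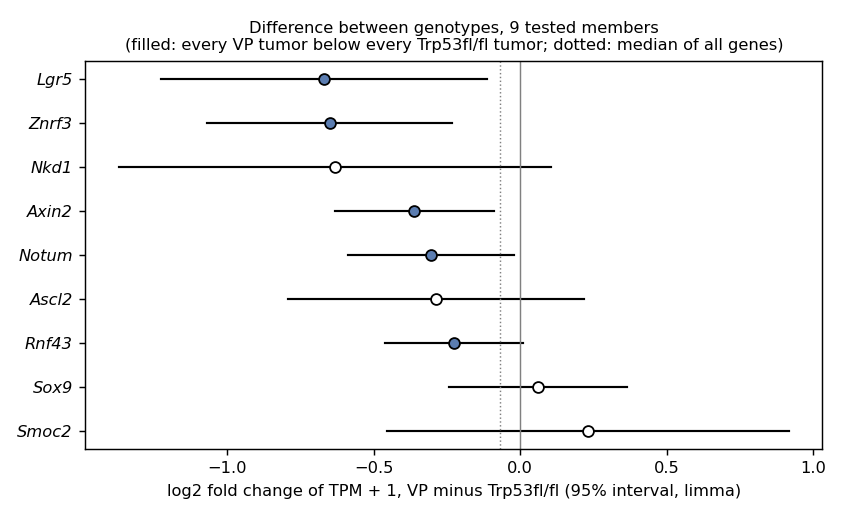
Log2 fold change of TPM + 1 (horizontal axis, *VP* minus *Trp53fl/fl*) of the 9 tested genes, with points for the estimate and lines for the 95% interval from limma, and a dotted line at the median of all genes tested (-0.07). The intervals of *Lgr5*, *Znrf3*, *Axin2* and *Notum* lie below 0, and that of *Sox9* is centred near 0.

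The 5 genes that inhibit the pathway, *Axin2*, *Nkd1*, *Notum*, *Rnf43* and *Znrf3*, shared their lowest tumor, while their highest tumor differed. In each of them all 3 *VP* tumors were below the *Trp53fl/fl* mean and *VP* replicate 2 was the lowest of the 6 tumors. Over all genes tested, *VP* replicate 2 was the lowest tumor for 19.2%. In *VP* replicate 2 the difference from the *Trp53fl/fl* mean ran from -0.27 for *Rnf43* to -1.39 for *Nkd1* on the log2 scale. The stem cell genes among the members had no such common tumor. *Lgr5* and *Smoc2* were lowest in *VP* replicate 3, *Ascl2* in *VP* replicate 1 and *Sox9* in *Trp53fl/fl* replicate 2. Outside the members the split by role did not hold. In the list of other stem cell genes, *VP* replicate 2 was lowest for *Msi1*, *Mex3a*, *Tnfrsf19*, *Bmi1* and *Hopx*. For the rest of that list, *Cdk6* and *Tert* among them, it was not. Of the other Wnt targets tested, it was lowest for *Prox1*, *Lef1*, *Sp5* and *Ephb3* and for the inhibitors *Apcdd1* and *Wif1*, and not for the rest. The inhibitor *Dkk2* was lowest in *VP* replicate 1, and *Nkd2* was highest in *VP* replicate 2. *Tnfrsf19*, *Bmi1*, *Hopx*, *Lef1*, *Sp5*, *Ephb3* and *Wif1* were named after their values were seen. The grouping by role is from background knowledge and was made with the values known, so no test was applied to it.

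**Figure D3:**
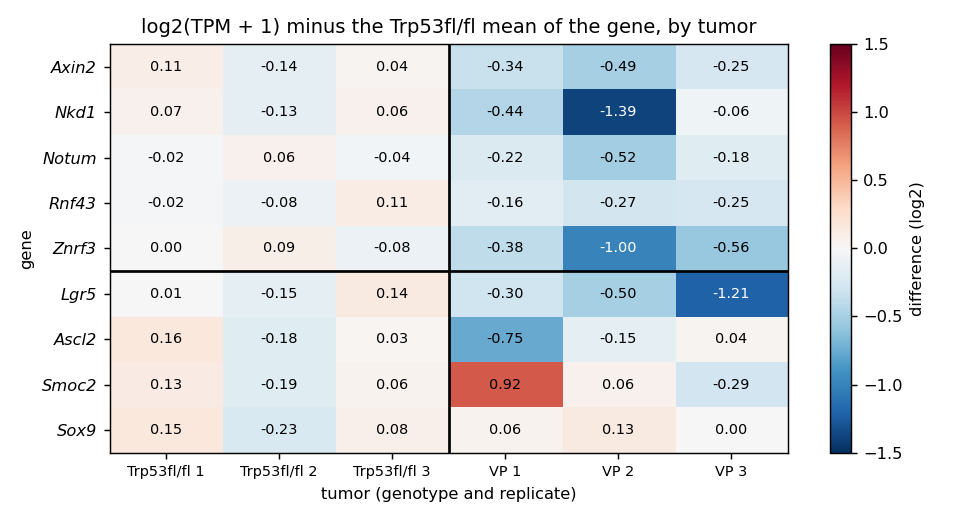
Log2(TPM + 1) of each tumor minus the *Trp53fl/fl* mean of that gene, for the 9 tested genes (rows, inhibitors of the pathway above the line and stem cell genes below) and the 6 tumors (columns). The column of *VP* replicate 2 is the lowest for all 5 inhibitors, down to -1.39 for *Nkd1*, whereas *Lgr5* reaches -1.21 in *VP* replicate 3.

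The spread among tumors was compared as well. The SD as a share of the mean was larger in *VP* than in *Trp53fl/fl* tumors for 6 of the 9 genes, against 48.1% of all genes tested, at 42.2% against 7.59% for *Nkd1*, 45.5% against 11.2% for *Smoc2* and 31.5% against 10.1% for *Lgr5*. These are the genes with the largest shares in *VP* among the 9. The share was smaller in *VP* for *Axin2*, *Rnf43* and *Sox9*. With 3 tumors in each genotype these SDs are imprecise, and their difference was not tested.

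The size of the differences depended on the scale. Centring each tumor on the mean of the 12 epithelial markers shifts all genes within a tumor alike, by an amount that differs between tumors. This lowered every log2 fold change by the same amount and moved the median of all genes from -0.07 to -0.21. It made 8 of the 9 genes negative, with *Lgr5* at -0.81, *Znrf3* at -0.79 and *Axin2* at -0.50 on the log2 scale. Median-of-ratios rescaling, under which the median of all genes was 0.00, left 7 negative, with the same genes at -0.59, -0.58 and -0.28. Relative to the median of all genes, 7 of the 9 were lower in the fit reported and under each of these scalings. A single factor per tumor moves every gene and that median nearly alike, so this count could hardly change and says nothing about stability. Of the 12 epithelial markers themselves, 9 had a log2 fold change above 0 and 3 below, where 60.8% of all genes tested were below. At an unadjusted limma p under 0.05 none was lower and 2 were higher, against 8% and 4.51% of all genes tested. These were *Krt19* (log2 fold change 0.39) and *Cldn7* (0.37), without overlap between the genotypes.

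Of the 10 genes, 5 lie on chromosome 11, which also holds *Trp53* (69580359 to 69591873). *Rnf43* is 18.1 Mb from it, *Axin2* 39.3 Mb, *Sox9* 43.2 Mb, *Notum* 51.1 Mb and *Znrf3* 64.1 Mb. Of these, all but *Sox9* are among the genes whose values did not overlap between the genotypes. Both genotypes carry the floxed *Trp53* alleles. Whether position on this chromosome bears on the values was not tested.

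The rest of the pathway was examined through 4 further lists. Among 13 other genes of intestinal stem cells, all tested, none passed the limma adjustment, and 4 were lower and none higher at an unadjusted p under 0.05, against 8% and 4.51% of all genes tested, with a median log2 fold change of -0.22 against -0.07. The lowest were *Msi1*, an RNA-binding protein of stem cells, at 15.37, 11.78 and 10.79 TPM against 10.22, 3.59 and 8.31 TPM (log2 fold change -0.79, limma adjusted p = 0.399), and *Mex3a*, an RNA-binding protein of slowly cycling *Lgr5* cells (log2 fold change -0.63, limma adjusted p = 0.341). The others of the 4, named after their values were seen, were *Cdk6* (log2 fold change -0.56) and *Tert* (-0.63), the catalytic subunit of telomerase. At the other end were *Prom1*, which encodes the surface marker CD133, whose log2 fold change was 0.49 (limma adjusted p = 0.497), and *Lrig1*, an ErbB inhibitor of crypt stem cells, with 0.34 (limma adjusted p = 0.620). These values leaned on single tumors. *Msi1* was at -0.40 without *VP* replicate 2, *Prom1* at 0.26 without *VP* replicate 1 or *Trp53fl/fl* replicate 3, and *Lrig1* at 0.16 without *VP* replicate 2 and 0.68 without *VP* replicate 3, all as log2 fold changes.

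Of 18 other Wnt targets, 16 were tested, none passed the limma adjustment, and their median log2 fold change was -0.21 against -0.07 over all genes tested. *Dkk2*, which encodes a secreted Wnt antagonist, was at 27.52, 20.69 and 27.06 TPM in *Trp53fl/fl* and 8.15, 11.89 and 20.63 TPM in *VP* tumors, narrowly without overlap (log2 fold change -0.92, limma adjusted p = 0.333). *Apcdd1*, a membrane-bound Wnt inhibitor, was at 78.66, 78.10 and 93.01 TPM against 67.80, 15.60 and 77.02 TPM. *VP* replicate 2 was again the low tumor, and the log2 fold change of *Apcdd1*, -0.91 (limma adjusted p = 0.512), was -0.20 without it. *Prox1*, a transcription factor and Wnt target of intestinal tumors, was named after its values were seen. It was at 92.94, 90.14 and 76.75 TPM against 56.44, 32.06 and 51.96 TPM (log2 fold change -0.91, limma adjusted p = 0.266). *Prox1* and *Dkk2* were the only genes of the list at an unadjusted limma p under 0.05. That is 2 of 16 lower and none higher, against 8% and 4.51% of all genes tested. The highest log2 fold changes were 0.34 for *Nkd2*, the paralog of *Nkd1*, at 1.04 to 3.29 TPM, and 0.25 for *Cd44*, a hyaluronan receptor of crypt cells, whose lowest *VP* tumor, at 66.59 TPM, was just above the highest *Trp53fl/fl* tumor, at 66.33 TPM (limma adjusted p = 0.614 and 0.416). The log2 fold change of *Nkd2* was 0.13 without *VP* replicate 2 and 0.52 without *VP* replicate 3.

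The genes of Wnt reception, 12 R-spondins, receptors and Dishevelled proteins of which 9 were tested, had a median log2 fold change of 0.02, against -0.07 over all genes tested. None of them had an unadjusted limma p under 0.05, where 12.5% of all genes tested did. Their log2 fold changes lay between -0.26 for *Dvl3* and 0.27 for *Rspo3*, with *Lrp6* at -0.25 and *Dvl2* at 0.19, and the values of each overlapped between the genotypes. *Rspo3*, a stromal ligand of *Lgr5*, was at 0.79, 1.27 and 0.73 TPM against 1.55, 2.31 and 0.47 TPM. Its log2 fold change was 0.015 without *VP* replicate 2 and 0.60 without *VP* replicate 3. That of *Dvl2* was 0.091 without *Trp53fl/fl* replicate 2 and 0.36 without *Trp53fl/fl* replicate 3, and that of *Lrp6* was -0.16 without *Trp53fl/fl* replicate 2.

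Among 16 genes of transduction, from the degradation complex to TCF factors, 15 were tested and none passed the limma adjustment. Their median log2 fold change was -0.24 against -0.07 over all genes tested. At an unadjusted limma p under 0.05, 3 were lower and 1 higher, against 8% and 4.51% of all genes tested. *Csnk1a1*, the kinase that primes β-catenin for degradation, was at 241.63, 225.13 and 205.04 TPM in *Trp53fl/fl* and 152.62, 148.53 and 155.52 TPM in *VP* tumors. The genotypes did not overlap, and the log2 fold change was -0.55 (standard error 0.10, limma adjusted p = 0.145). The limma adjusted p of *Csnk1a1* ranged from 0.0221, with array quality weights, to 0.507 over the 15 alternatives. *Tnks2* (log2 fold change -0.35, limma adjusted p = 0.392) and *Tnks* (-0.35, named after its values were seen) encode tankyrases, which mark axins for degradation. *Tcf7l1*, a TCF factor that mostly represses, was at 15.77, 12.25 and 23.34 TPM against 26.02, 29.42 and 25.65 TPM (log2 fold change 0.67, limma adjusted p = 0.331), and *Axin1*, the constitutive relative of *Axin2*, was at 0.098 on that scale (limma adjusted p = 0.713), and at -0.040 with epithelial centring.

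**Figure D4:**
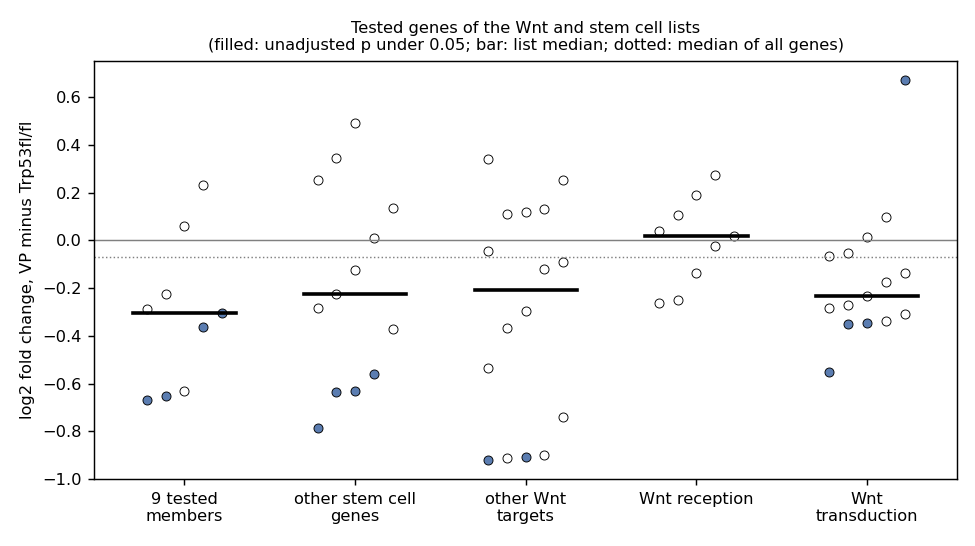
Log2 fold change of TPM + 1 (vertical axis, *VP* minus *Trp53fl/fl*) of every tested gene of the 5 lists, with filled points for an unadjusted limma p under 0.05, bars for the list medians and a dotted line at the median of all genes tested. The medians are -0.30, -0.22, -0.21, 0.02 and -0.24 from left to right, and no point passed the adjustment.

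Markers of proliferation and of mature colonocytes were also examined. Of 10 proliferation genes, 9 had a log2 fold change below 0, against 60.8% of all genes tested, with a median of -0.14 against -0.07, and 1 of them, *Mki67*, was at an unadjusted p under 0.05 (log2 fold change -0.54), where 8% of all genes tested were. Of 8 markers of mature colonocytes, 6 were above 0 and 2 below, where 60.8% of all genes tested were below. At an unadjusted limma p under 0.05, 1 was lower, *Car1* (-0.94 on the log2 scale), and 1 higher, *Cyp2c55* (1.28). The shares of all genes tested were 8% and 4.51%. None of these passed the limma adjustment, and the part of cell composition in the values of the 10 genes was not tested.

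By similarity across the 6 tumors, the genes most like *Lgr5* among the 11484 others with a mean of at least 5 TPM were *Gmnn*, *Nr1d1*, *Zfyve26*, *Ccnyl1* and *Dock1*, with Pearson correlations of log2(TPM + 1) between 0.978 and 0.989 and Spearman correlations between 0.943 and 1. Without *VP* replicate 3 and *Trp53fl/fl* replicate 3, the tumors farthest from the median of *Lgr5*, the Pearson correlations of these genes were between 0.820 and 0.998. *Gmnn* encodes geminin, which blocks relicensing of replication, and *Nr1d1* a repressor of the circadian clock. Among the other members the correlation with *Lgr5* was highest for *Rnf43*, at 0.818, and near 0 for *Ascl2* (-0.003). These 6 points share their genotype differences, and the best of so many genes will correlate closely over 6 tumors, so the values describe the pattern only.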

How the data were processed

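RNA-seq of 6 AOM/DSS colorectal tumors was used. The authors selected poly(A) RNA, ran paired-end sequencing and deposited a TPM value for each gene and tumor, unpooled and rounded to 2 decimals. The submitters' processing notes name HISAT2, StringTie and the build mm9, with no versions. As TPM sum to a constant, a rise of abundant transcripts lowers the rest. TPM keep no read number: depth is unknown, and counting error is not given. Columns were assigned by the tumor codes in the labels, and none was left over.

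From the deposited TPM, log2(TPM + 1) was compared between genotypes for every gene that reached 1 TPM in 3 or more tumors, using limma 3.58.1 (R 4.3.3) with moderated variances that follow a mean trend. P-values were adjusted by Benjamini-Hochberg over all 15117 genes. The fit was tested on simulated data. Positions are from GENCODE M21 (GRCm38), joined by gene ID, since the files hold none.

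Age, AOM and DSS doses and the collection day are from the study's methods. The 10 genes and all lists were chosen with earlier results of these data known. Named are the 10 genes, *Trp53*, from each further list the 2 highest and 2 lowest log2 fold changes and any gene passing the adjustment, and the 5 genes most like *Lgr5*. Other genes are said to have been named after their values were seen, apart from markers of cell types and *Notumos*, which were named likewise. Alternatives are given in the closing section.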

Additional observations from a re-analysis of the deposited data

How the results depend on the processing

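No member passed the limma adjustment in any of the 15 alternative fits, where the smallest adjusted p of a member was 0.0537 (*Axin2*, array quality weights), nor at an adjusted p under 0.1 in the fit reported. The number of members at an unadjusted p under 0.05, 4, was 7 with array quality weights and 1 to 5 when single tumors were dropped, while the share of all genes at that threshold, 12.5%, was 27.9% and 7.48% to 16.1%. These members were each time all lower in *VP* apart from *Olfm4*, which was tested only without the expression filter. The median log2 fold change of the members, -0.30, was -0.44 with epithelial centring and between -0.40 and -0.25 when single tumors were dropped. Signs were reversed for *Sox9* with epithelial centring (-0.078), with array quality weights (-0.060) and without *Trp53fl/fl* replicate 2 (-0.054), for *Smoc2* without *VP* replicate 1 (-0.11) and for *Axin1* with epithelial centring (-0.040), none of them past the adjustment. Over the dropped tumors *Sox9* ranged from -0.054 to 0.138 and *Smoc2* from -0.11 to 0.49. The 25 genes called over the whole table became 7 without the filter, 40 with epithelial centring, 10 with the replicate block, 323 with array quality weights and 6 to 28 when single tumors were dropped, and were 44 at a threshold of 0.1. The 12 higher and 13 lower calls became 12 and 8 with median-of-ratios rescaling and 15 and 25 with epithelial centring. The adjusted p of *Trp53* was above 0.05 in 6 alternatives, at 0.105 at most. The causes of these changes were not tested. The labels do not say whether the replicate numbers pair the tumors. The deviations of same-numbered tumors correlated at 0.0185, -0.0520 and 0.0175, and those of other pairs at -0.108 to 0.0952. With 3 tumors in each genotype these values cannot decide whether tumors were paired. The replicate block also gave 4 members at an unadjusted limma p under 0.05, with *Nkd1* in place of *Notum*. Depth limits are unknown, since TPM keep no read number, and 2 decimals leave *Olfm4* with coarse values.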
